A study of Canis lupus familiaris with 8 samples.

Results

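GATA3 was followed across the peripheral blood T cells of 4 healthy dogs, as 1 of the 20257 genes in the deposited matrices and 1 of the 13127 genes kept for analysis. It was chosen by name (gene identifier ENSCAFG00000005019), not by its values. Its counts were read in every cell with 500 to 20000 unique molecular identifiers (UMIs) and at most 10% of them from mitochondrial genes, which left 31909 of 33125 barcodes. The level of GATA3 by coreceptor class, cluster and marker gene, the genes that differ between GATA3-high cells and cells without a GATA3 UMI, and the sharing of T cell receptors are given in turn.

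The cells came from Beagles, a female of 5 years (dog 1), males of 7 years (dogs 2 and 3) and a male of 9 years (dog 4). The study reports routine vaccinations for all dogs and names no other treatment. TCRαβ+ T cells were sorted from blood mononuclear cells by flow cytometry, then frozen, and thawed before the libraries were made. Each dog gave 1 gene expression library with a 5' droplet method and 1 V(D)J library. The dog was the replicate throughout, so n = 4. Dogs were not tested against each other by age or sex, since these cannot be told apart from the animal.

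GATA3 is a zinc finger transcription factor that is needed for the commitment of thymocytes to the T cell lineage and for the CD4 lineage in particular. In peripheral T cells it is best known as the factor that drives T helper 2 (Th2) differentiation and the genes for IL-4, IL-5 and IL-13, in opposition to T-bet, the T helper 1 (Th1) factor encoded by TBX21. It is also made by part of the regulatory T cells (Treg), which are defined by FOXP3, and at a lower level by resting T cells and by CD8 T cells.

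Before filtering, the libraries held 26904346 to 35661623 UMIs. Kept cells had medians of 3599 to 3932 UMIs per dog, and a CD3E UMI, the mark of T cells, was found in 94.4% to 96.0% of them. Between 81 and 113 barcodes were shared by each pair of libraries. These cells were not removed, and cells were identified by barcode and dog. No doublet caller was run. Instead, an alternative left out cells with more than 1 productive TCRβ (TRB) rearrangement, a sign of more than 1 cell in a droplet. It was run for the level of GATA3 by coreceptor class and for the genes that differ with GATA3 in CD4 cells. No other comparison had it.

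In all, 14452 GATA3 UMIs were counted. No GATA3 UMI was seen in 21983 cells, 1 in 6851 cells, 2 in 2143 cells and 3 or more in 932 cells, with a highest count of 10. The level of GATA3 was 107, 122, 112 and 115 UMIs per 1000000 UMIs (CPM) in dogs 1 to 4, so the dogs lay close together. A GATA3 UMI was found in 27.3%, 33.9%, 31.3% and 31.4% of the cells of dogs 1 to 4 (mean 31.0% ± 2.73 SD, n = 4). Were GATA3 spread evenly over cells in proportion to their depth, 2672 cells would hold at least 2 GATA3 UMIs, and 3075 did. Cells with at least 2 GATA3 UMIs are called GATA3-high from here on. A cell with 0 is one in which no molecule was caught, not one shown to lack GATA3.

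Coreceptor classes were defined by at least 1 UMI of CD4 or CD8A: CD4 single-positive (CD4 sp, 13247 cells), CD8A single-positive (CD8A sp, 6427 cells), CD4 CD8A positive (dp, 725 cells) and negative for both (dn, 11510 cells). In CD4 sp cells GATA3 stood at 95.8, 117, 116 and 111 CPM in dogs 1 to 4. In CD8A sp cells it stood at 57.6, 80.1, 67.4 and 66.5 CPM, below the CD4 sp cells of every dog and without overlap between the classes. In dn cells it was highest, at 141, 154, 147 and 162 CPM, again without overlap with any other class. In dp cells it was 95.4, 89.9, 102 and 105 CPM, within or just below the range of CD4 sp cells.

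With all genes in 1 fit (edgeR quasi-likelihood test on UMIs summed per dog and class, dog as a block, Benjamini-Hochberg adjustment), the log2 fold change of GATA3 in CD8A sp against CD4 sp cells was -0.70 (SE 0.055, edgeR adjusted p = 3.6e-11), lower in 4 of 4 dogs. In that contrast 35.1% of all genes tested were called in one direction or the other. GATA3 was higher in dn than in CD4 sp cells by 0.44 on the log2 scale (SE 0.049, edgeR adjusted p = 1.3e-06), where 2.24% of genes were called. The difference of dp from CD4 sp cells, -0.19 (SE 0.074, edgeR adjusted p = 0.20), did not pass the threshold, with 3.88% of genes called. Cells that lack a coreceptor and cells whose coreceptor transcript was not caught cannot be told apart among dn cells. With at least 2 UMIs asked for, which by construction moves cells with 1 UMI into this class, dn cells numbered 17702 and the dn difference was 0.24 (SE 0.049, edgeR adjusted p = 0.012).

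**Figure D1:**
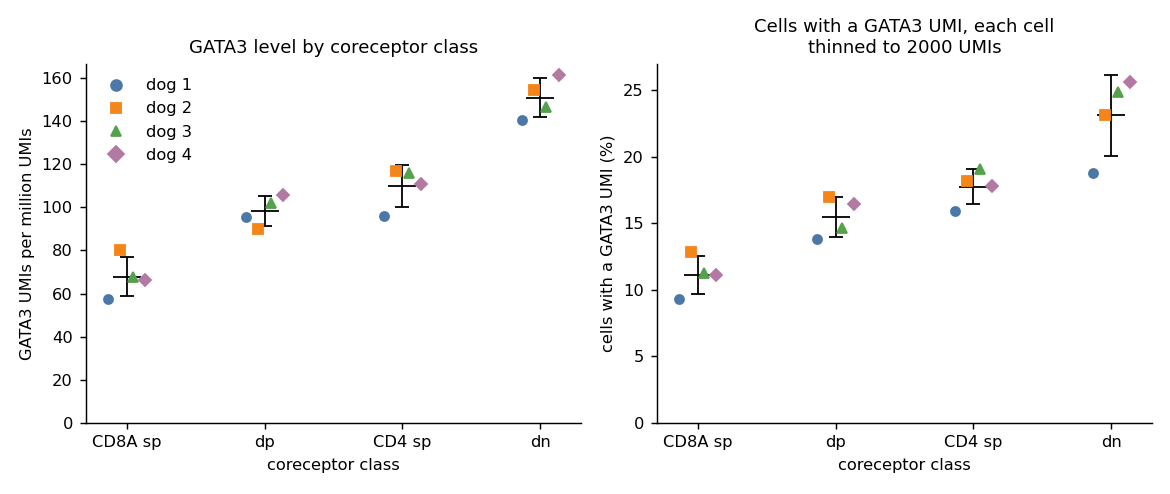
GATA3 by coreceptor class. Left, GATA3 CPM in cells summed per dog. Right, percentage of cells with a GATA3 UMI after each cell of at least 2000 UMIs was thinned to 2000 UMIs. Points are dogs, the long tick is the mean and bars are the SD (n = 4). In both panels CD8A sp cells are lowest (means of 67.9 CPM and 11.1%) and dn cells highest (151 CPM and 23.1%).

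The share of cells with a GATA3 UMI followed a different order at the depth of each class. It was 40.3% ± 4.03 in dp cells, 34.9% ± 3.43 in dn cells, 32.0% ± 3.41 in CD4 sp cells and 21.3% ± 2.90 in CD8A sp cells (SD, n = 4). The dp cells were also the deepest, with medians of 5418 to 5955 UMIs against 3232 to 4092 in the other classes. More of them had more than 1 TRB, a sign of more than 1 cell in a droplet. Leaving such cells out left 623 of 725 dp and 12856 of 13247 CD4 sp cells. The mean level in dp cells was then 94.3 CPM, against 98.1 CPM with them. Droplets with more than 1 cell may remain. After thinning, the order was that of the CPM: 23.1% ± 3.05 in dn, 17.8% ± 1.34 in CD4 sp, 15.5% ± 1.51 in dp and 11.1% ± 1.43 in CD8A sp cells. Of the 3075 GATA3-high cells, 47.0% were dn, 40.3% CD4 sp, 9.56% CD8A sp and 3.15% dp, whereas these classes made up 36.1%, 41.5%, 20.1% and 2.27% of all kept cells.

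Some other factors of T cell lineages, picked after their values were seen, were read from the same fit. TBX21 was higher in CD8A sp than in CD4 sp cells, with means of 145 and 19.9 CPM (log2 fold change 2.88, edgeR adjusted p = 1.2e-06). FOXP3 was lower, with means of 3.39 and 17.8 CPM (-2.25, edgeR adjusted p = 8.5e-05), as was ZBTB7B, the gene of the CD4 lineage factor ThPOK, with 7.14 and 19.0 CPM (-1.41, edgeR adjusted p = 3.9e-11). IKZF2, another gene of Treg, went the other way from FOXP3, with 39.1 CPM in CD8A sp and 22.6 CPM in CD4 sp cells (0.73, edgeR adjusted p = 0.025). Between dn and CD4 sp cells, FOXP3 (19.4 and 17.8 CPM, edgeR adjusted p = 0.88) and TBX21 (24.3 and 19.9 CPM, edgeR adjusted p = 0.75) did not pass the test. TCF7, a factor of naive T cells, passed as GATA3 did, but was lower in dn cells (280 and 353 CPM, -0.35, edgeR adjusted p = 0.033).

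GATA3 per UMI was not even over depth. Cells of 2000 to 4000 UMIs had a mean of 103 ± 8.89 CPM, those of 4000 to 8000 UMIs 113 ± 4.25 and those above 118 ± 8.60 (SD, n = 4). Shallow cells stood higher, at 172 ± 7.13 CPM below 1000 UMIs and 192 ± 48.7 CPM from 1000 to 2000 UMIs. By means over dogs, CD8A sp cells were lowest in every range. By the same means, dn cells were highest in all but that of 1000 to 2000 UMIs, where CD4 sp cells had 219 CPM and dn cells 210 CPM. Below 1000 UMIs this order did not hold in each dog. In dog 4, CD8A sp cells stood at 264 CPM, dn cells at 170 and CD4 sp cells at 117. In dogs 2 and 3, CD4 sp cells (197 and 210 CPM) lay above dn cells (183 and 201 CPM). Means in cells of 4000 to 8000 UMIs were 71.7 CPM in CD8A sp, 106 in CD4 sp and 150 in dn cells. With cells of at least 2000 UMIs only, the class differences were -0.68 for CD8A sp (edgeR adjusted p = 5.1e-11) and 0.46 for dn cells (edgeR adjusted p = 4.6e-07).

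Clusters were then made without GATA3 among their genes, so that its level in them is not built in by its own counts. Among 23 clusters, the mean GATA3 level ran from 36.3 to 332 CPM. These levels are a description, since clusters come from the same cells. Neighbours in the order were taken to differ where the difference had the same sign in all 4 dogs and was larger than its SD, which held for 5 of 22 neighbouring pairs.

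The highest level was in cluster 3, led by the integrin genes ITGA2 and ITGB1 and the chemokine receptor gene CCR4, with 384, 364, 282 and 298 CPM in dogs 1 to 4. Its 2497 cells were shallow, with a median of 1275 UMIs and 5.10% of UMIs from mitochondrial genes. Their part in the level was not tested. Cluster 15, led by FOXP3, had 271, 263, 270 and 264 CPM, and its 795 cells were deep (median 5033 UMIs). A GATA3 UMI was found in 72.5% of its cells, the largest share of the 23 clusters.

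Cluster 6, led by RBP4, LGALS3 (galectin-3) and ITGA2, had 221, 240, 205 and 244 CPM. It lay below cluster 15 in every dog, by a mean of 39.7 CPM (SD 22.1), and above the next cluster, number 13, by 86.2 CPM (SD 14.8). Clusters 3, 15 and 6 together held 16.8% of kept cells, 30.7% of GATA3 UMIs and 37.2% of GATA3-high cells. Their cells were mostly CD4 sp or dn: 72.5% of cluster 6 and 51.2% of cluster 15 carried neither coreceptor transcript.

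In the middle of the order, clusters 4 (led by SAMHD1 and GPR25, 137 ± 13.0 CPM) and 12 (led by CDH23 and TNFRSF4, 132 ± 14.4 CPM) did not differ from each other. The Treg genes FOXP3, CTLA4 and TNFRSF18 were also among the leading genes of cluster 12. Its GATA3 level was thus well below the mean of 267 CPM in cluster 15, the cluster led by FOXP3. Cluster 5 followed at 111 ± 3.37 CPM (led by C9H17orf64, with KLK11 and CCR9), and then a long run of clusters in which no neighbour differed from the next. Clusters with RGS10 and LEF1, a factor of naive T cells, among their leading genes lay low: 85.8 ± 21.9 CPM in cluster 9, 78.6 ± 14.0 in cluster 8 and 62.2 ± 6.01 in cluster 2. Of cluster 8, 84.7% of cells came from dog 1.

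Clusters 7, 14, 17, 18 and 19, made up mainly of CD8A sp cells, lay at the low end, between 51.5 and 62.3 CPM on average. Cluster 22, also mainly of CD8A sp cells but shallow (median 1543 UMIs), had 100.1 CPM. Cluster 7, led by the cytotoxic genes GZMB and KLRB1, had 57.2 ± 15.2 CPM, and cluster 18, led by FCER1G, 51.5 ± 12.7 CPM. The lowest was cluster 16, led by NMB, with 31.0, 36.9, 49.7 and 27.4 CPM. A GATA3 UMI was found in 13.4% of its cells at a median depth of 3582 UMIs. Of the cells of cluster 16, 53.7% were CD8A sp and 43.6% dn. No cell type known to lack GATA3 was sorted, so these data give no background, and this share is not one.

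**Figure D2:**
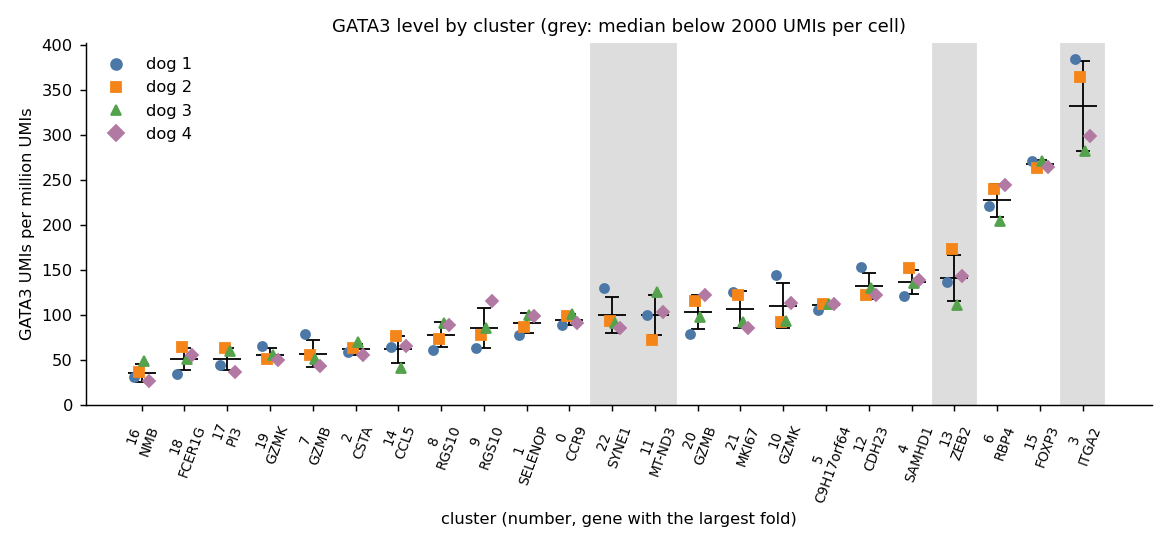
GATA3 CPM in the 23 clusters, ordered by their mean. Points are dogs, the long tick is the mean and bars are the SD (n = 4). Each cluster is named by its number and the gene with the largest fold. Grey marks clusters with a median below 2000 UMIs. Clusters 6, 15 and 3 lie at 205 CPM or more in every dog, and the others at 174 CPM or less.

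The genes whose mean level over the 23 clusters was most like that of GATA3, among 5188 genes of at least 20 CPM, were CSGALNACT1 (Pearson r = 0.930 on log2 values with 10 CPM added), KCTD12 (0.927), PLEC (0.897), CAB39 (0.895) and IQSEC1 (0.884). Over the 19 clusters with a median of at least 2000 UMIs they were GSDMA (0.919), CSGALNACT1 (0.912), LGALS3 (0.912), KCTD12 (0.911) and DHRS7 (0.883). The clusters share libraries and differ in depth, so these values describe likeness alone.

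Next, GATA3 was read in CD4 sp and CD8A sp cells with at least 1 UMI of a marker gene, set against as many cells of the same dog and class with none, matched on depth. The gate genes are among those by which the study described subsets of these same cells. It already reports FOXP3 and GATA3 together in part of its Treg cluster, and named its Th2 cluster, with LGALS3, by GATA3. A rise in the FOXP3, IKZF2, CCR4 or LGALS3 gate is therefore a description and no independent evidence. Of 15 such gates, GATA3 was higher in 4 and lower in 4. In CD4 sp cells with a UMI of FOXP3, the Treg factor, GATA3 was at 184, 192, 159 and 155 CPM in dogs 1 to 4, against 116, 80.8, 96.6 and 92.0 CPM without (log2 fold change 0.85, SE 0.11, edgeR adjusted p = 5.1e-08, 7.72% of genes called). The groups did not overlap.

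IKZF2 encodes Helios, a factor of Treg. GATA3 was at 167, 187, 159 and 134 CPM in the cells with an IKZF2 UMI and at 93.8, 111, 102 and 86.6 CPM in those without (0.66, SE 0.089, edgeR adjusted p = 1.2e-06, 12.2% of genes called), again without overlap. For CCR4, a receptor of Th2 cells and Treg, it was at 213, 257, 221 and 186 CPM against 79.2, 114, 125 and 130 CPM (0.89, SE 0.12, edgeR adjusted p = 1.6e-10, 8.66% of genes called), the largest difference of the 15 gates.

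For LGALS3, GATA3 was at 170, 144, 149 and 137 CPM with and 88.2, 99.3, 104 and 98.2 CPM without a UMI (0.58, SE 0.064, edgeR adjusted p = 1.8e-07, 14.5% of genes called). These 4 gates passed in all alternatives run, the highest adjusted p being 0.0045, for IKZF2 in edgeR without the dog as a block.

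GATA3 was lower in CD4 sp cells with a UMI of CCR7, a receptor of naive and central memory cells, at 77.5, 99.0, 95.3 and 87.8 CPM against 113, 126, 131 and 120 CPM. The log2 fold change was -0.43 (SE 0.049, edgeR adjusted p = 1.3e-11), in a contrast where 24.9% of genes were called, and the groups did not overlap. Without the dog as a block its adjusted p was 0.13. For CXCR3, a Th1 receptor, the difference was -0.22 (edgeR adjusted p = 0.0325, 9.25% of genes called), and for CCR9, a receptor for homing to the gut, -0.27 (edgeR adjusted p = 0.018, 9.99% of genes called). Dog 1 went the other way in both: 107 against 95.2 CPM for CXCR3 and 109 against 94.6 CPM for CCR9. DESeq2 gave adjusted p = 0.68 and 0.34 for these, and both calls were lost when dog 2 or dog 4 was left out (adjusted p of 0.076 to 0.35), the CXCR3 call also without dog 3 (0.20).

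In CD4 sp cells, the gates of GPR25 (0.04), TBX21 (-0.07) and KLRK1 (-0.22, edgeR adjusted p = 0.20), a receptor of cytotoxic cells, gave no call, in contrasts where 1.3%, 4.53% and 5.01% of genes were called. In CD8A sp cells, GATA3 was lower with a UMI of GZMB (granzyme B), at 48.7, 75.0, 64.8 and 58.4 CPM against 66.7, 82.1, 80.7 and 81.6 CPM (-0.35, SE 0.086, edgeR adjusted p = 0.00595, 15.9% of genes called). That call was lost in DESeq2 (adjusted p = 0.21) and without dog 4 (edgeR adjusted p = 0.058). In the CD8A sp gates of CCR7, FCER1G, TOX and KLRK1, log2 fold changes lay between -0.24 and -0.10, and none passed, with 13.7%, 4.98%, 4.56% and 3.99% of genes called.

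**Figure D3:**
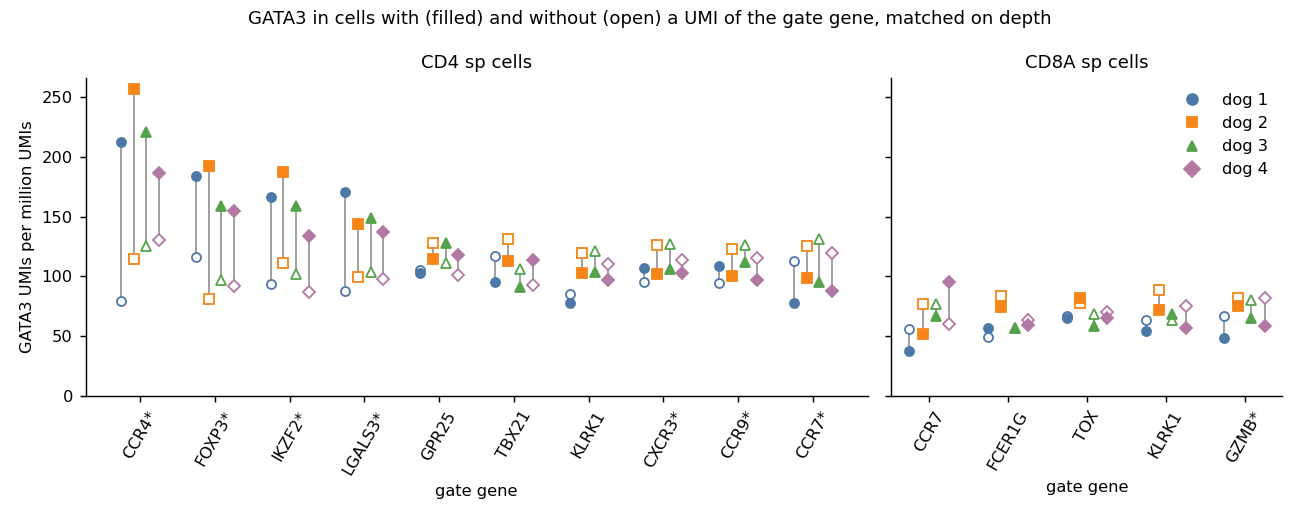
GATA3 CPM in cells with (filled) and without (open) a UMI of the gate gene, joined within each dog and matched on depth, in CD4 sp cells and CD8A sp cells. A star marks an edgeR adjusted p under 0.05. In the CCR4, FOXP3, IKZF2 and LGALS3 gates the filled symbol is above the open one in 4 of 4 dogs.

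The comparison was then turned round: cells with at least 2 GATA3 UMIs were set against as many cells of the same dog with 0, matched on their other UMIs, and all genes but GATA3 were tested. This reads the same cells as the gates from the other side and is no independent evidence for FOXP3, IKZF2, CCR4 or LGALS3. There were 263, 394, 283 and 300 GATA3-high CD4 sp cells in dogs 1 to 4, with a mean of the medians of 4967 UMIs against 4965 in the matched cells. Of 7923 genes tested, 211 were higher and 195 lower in GATA3-high cells, which is 5.12%. Of these 406, 381 had 1 sign in all 4 dogs. By direction, 2.66% of the genes tested were called higher and 2.46% lower.

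CCR4 and FOXP3 had the largest folds of the genes named by size in GATA3-high CD4 sp cells. CCR4 was at 24, 51.0, 38.7 and 23.5 CPM in the GATA3-high cells of dogs 1 to 4 and at 4.44, 7.99, 7.27 and 5.12 CPM in the matched cells, without overlap (log2 fold change 2.42, SE 0.21, edgeR adjusted p = 2.3e-14). FOXP3 was at 30.6, 46.9, 48.8 and 30.4 CPM against 8.89, 7.05, 17.2 and 10.9 CPM (1.84, SE 0.19, edgeR adjusted p = 1.8e-11). A CCR4 UMI was found in 11.8% of GATA3-high and 2.71% of matched cells, and a FOXP3 UMI in 11.7% and 4.26% (means over dogs). In most GATA3-high cells no UMI of either gene was caught, which does not show that they lack it.

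Of 8 Treg genes tested, 5 rose and 0 fell, with a median log2 fold change of 0.76 against 0.00 over all genes tested. Besides FOXP3 these were IKZF2 (1.56), CTLA4 (0.49), an inhibitory receptor, IL2RA (1.26), a chain of the IL-2 receptor, and TNFRSF18, which encodes GITR (0.85). IKZF2 was at 55.3, 64.1, 57.0 and 36.1 CPM against 16.3, 19.3, 17.8 and 16 CPM, without overlap. ICOS, a costimulatory receptor, was level at -0.01 (edgeR adjusted p = 0.98).

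Of the 21 Th2 genes on the list, only 4 had counts enough for a test in CD4 sp cells, and 2 of them, CCR4 and LGALS3, rose. Neither is particular to Th2 cells: the study counts CCR4 among its Treg markers and reports LGALS3 in its Th2, Treg and GPR25+ clusters. It named the Th2 cluster by GATA3 in these same cells, so LGALS3 is no independent mark of Th2 cells here. LGALS3 was at 155, 228, 290 and 191 CPM against 39.3, 116, 141 and 83.8 CPM (1.13, SE 0.10, edgeR adjusted p = 4.8e-07). Every dog was higher in its GATA3-high cells. MAF, a factor of IL-4 expression, had 0.32 (edgeR adjusted p = 0.46) and PPARG, a nuclear receptor, -0.09 (edgeR adjusted p = 0.92).

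Among 15 galectin, S100, annexin and cytoskeletal genes, 7 rose and 0 fell (median 0.36). ITGB1, the integrin β1 chain of memory T cells, was at 411, 548, 520 and 532 CPM in GATA3-high cells and at 133, 214, 263 and 241 CPM in matched cells, without overlap (1.20, SE 0.068, edgeR adjusted p = 1.3e-12). LMNA, which encodes the nuclear lamins A and C, was at 108, 163, 208 and 177 CPM against 23.7, 79.4, 86.5 and 81.9 CPM (1.20, SE 0.10, edgeR adjusted p = 1.4e-08). Annexin genes ANXA1 and ANXA2, the actin-capping gene CAPG and the adhesion receptor gene CD44 also rose. VIM, CRIP1, LGALS1 and AHNAK were higher on average (0.31 to 0.88) but did not pass.

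The other leading genes that rose in CD4 sp cells were the tubulin gene TUBB6 (1.59), the mitosis gene CENPF (1.29), ADIRF (1.11), the membrane protease gene MMP25 (1.06), the adaptor subunit gene AP1S2 (1.05) and the G protein subunit gene GNG3 (1.03). CENPF was at 75.0, 39.1, 26.0 and 17.1 CPM against 16.3, 14.6, 15.9 and 12.8 CPM, so that dog 1 stood highest and dog 4 differed least. It had 0.93 without dog 1 (edgeR adjusted p = 0.0011) and was not called without the dog as a block (edgeR adjusted p = 0.67) or without cells with a FOXP3 UMI (edgeR adjusted p = 0.62).

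Of 12 genes of naive cells tested, 4 fell, 1 rose and 7 did not pass, with a median of -0.13. CCR7 was at 132, 128, 124 and 79.2 CPM against 195, 164, 193 and 110 CPM, lower in each dog. TCF7 (-0.43) and LEF1 (-0.36), factors of naive and stem-like T cells, and TXNIP (-0.19), a gene of metabolic quiescence, fell as well. The gene that rose was S1PR1 (0.20), the receptor for exit from lymph nodes.

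Among 19 Th1 and cytotoxic genes, 4 fell and 1 rose (median -0.17). GZMK (granzyme K) was at 11.6, 74.2, 83.0 and 101 CPM in GATA3-high and at 25.2, 86.0, 168 and 155 CPM in matched cells, lower within each dog, although the dogs differ so much that the groups overlap (-0.69, SE 0.11, edgeR adjusted p = 1.6e-05). KLRK1 (-0.60), the IL-18 receptor gene IL18R1 (-0.35) and CCR9 (-0.46) fell, and CST7, which encodes an inhibitor of cathepsins, rose (0.67). TBX21 had -0.17 (edgeR adjusted p = 0.74), CXCR3 had -0.19 (edgeR adjusted p = 0.50) and CCL5, a chemokine, -0.68 (edgeR adjusted p = 0.74). The remaining genes named by size were CNKSR3 (-0.93), C8orf76 (-0.79), the ectoenzyme gene CD38 (-0.71), C15H16orf87 (-0.65), PPP1CB (-0.62) and CDCA7L (-0.61).

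Of 13 T cell receptor and coreceptor genes, 0 passed in CD4 sp cells. CD3E stood at means of 1289 CPM in GATA3-high and 1254 CPM in matched cells, and at -0.02 (edgeR adjusted p = 0.91) in the fit, whose normalization factors turn the sign: they were 0.999, 1.03, 1.005 and 1.04 in the GATA3-high and 0.948, 0.998, 0.972 and 1.01 in the matched sums, and CPM do not use them. Of 8 genes of stress and dying cells, 0 passed either, and the median mitochondrial share was 1.86% and 1.87%. Interferon-stimulated genes gave 3 of 12 higher, namely MX2 (0.63), IFI44 (0.41) and ISG15 (1.26), and 0 lower. In the cell cycle list, TOP2A alone of 10 rose (1.40).

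With no dog block, 7 of the 406 genes were called, among them CCR4, FOXP3, IKZF2 and ITGB1 of the genes named. Leaving out dog 2 left 214 genes called. More than 1 TRB was found in 9.56% of GATA3-high and 7.42% of matched CD4 sp cells with a TRB (means over dogs). Without such cells 384 genes were called, of which 336 were among the 406. Leaving out CD4 sp cells with a FOXP3 UMI left 224 genes called, of which 209 were among the 406. CCR4 (2.12) and IKZF2 (1.01) still rose, whereas ITGB1 (1.06, edgeR adjusted p = 0.14) and LGALS3 (0.99, edgeR adjusted p = 0.26) kept their size and did not pass. A cell without a FOXP3 UMI is not one shown to lack FOXP3, so Treg may remain among these cells. Without the 3 clusters of the highest GATA3 level (an alternative chosen after seeing the data), 122 genes were called, 117 of them among the 406. There CCR4 (1.72), FOXP3 (1.40), IKZF2 (0.87), TUBB6 (1.09) and LGALS3 (0.52) rose, and ITGB1 (0.67, edgeR adjusted p = 0.57) and LMNA (0.61, edgeR adjusted p = 0.40) did not pass. The 3 clusters held 10.8%, 8.04% and 7.34% of GATA3-high CD4 sp cells, for clusters 15, 3 and 6, against 1.59%, 3.83% and 2.98% of matched cells.

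Levels were then read by the number of GATA3 UMIs, for genes picked with the comparison above known. In CD4 sp cells of 4000 to below 8000 UMIs, ITGB1 had mean levels of 188, 237, 341 and 666 CPM in cells with 0, 1, 2 and 3 or more GATA3 UMIs. CCR4 had 6.65, 13.0, 20.7 and 46.1 CPM, IKZF2 14.1, 25.0, 35.9 and 62.2 CPM and LGALS3 93.9, 133, 204 and 291 CPM. Each of these 4 genes rose at every step in 4 of 4 dogs, but some steps were small. CCR4 went from 5.72 to 6.01 CPM in dog 1 between cells with 0 and 1 GATA3 UMI. In dog 3 it went from 18.3 to 18.8 CPM between cells with 1 and 2. Counting error was not weighed.

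The other higher genes did so in fewer: LMNA and ITGA2 in 3 dogs, CCR10 in 2 and IL2RA in 1. FOXP3 (11.8, 18.4, 24.6 and 50.5 CPM) rose at every step in 3 dogs. In dog 4 it had 17.1 CPM with 2 GATA3 UMIs and 10.9 with 3 or more. CCR7 had 165, 135, 110 and 89.3 CPM and fell at every step in 3 dogs, while CD3E kept to means of 1233 to 1286 CPM. CCR9 had 81.3, 85.0, 83.3 and 21.4 CPM, so its mean was lower only in cells with 3 or more GATA3 UMIs. KLRK1 was lower than in cells with 0 GATA3 UMIs in every dog with 3 or more, and in only some dogs with 1 or 2. The cells with 3 or more GATA3 UMIs numbered 38 to 62 per dog, and median depth rose with the GATA3 count, from 4700 to 4947 UMIs in cells with 0 to 5142 to 5570 UMIs in cells with 3 or more.

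**Figure D4:**
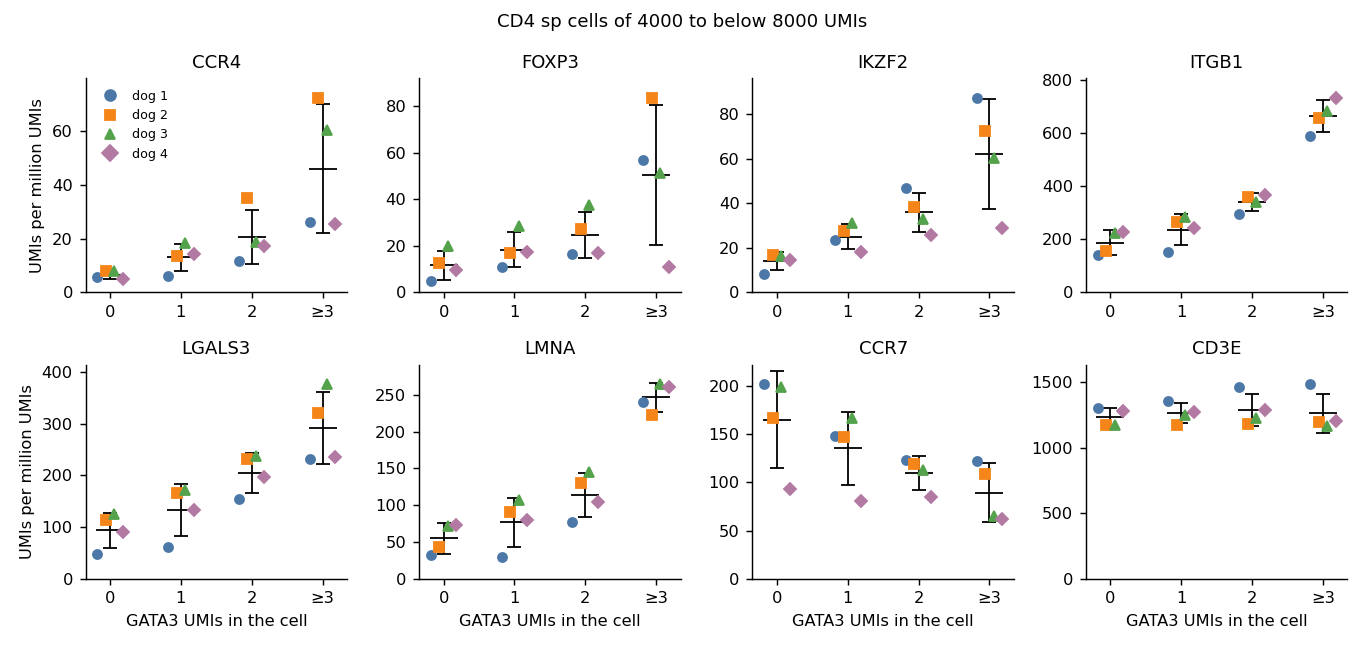
Level of 8 genes, in CPM, by the number of GATA3 UMIs in CD4 sp cells of 4000 to below 8000 UMIs. Points are dogs, the long tick is the mean and bars are the SD (n = 4). CCR4, IKZF2, ITGB1 and LGALS3 rise at each step in every dog, though by little at some steps. CCR7 falls in 3 dogs, and CD3E stays between 1165 and 1484 CPM.

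The same comparison was added for dn cells after the data had been seen, because they held the largest share of GATA3-high cells (288, 440, 355 and 361 in dogs 1 to 4). Of 7999 genes tested, 438 were higher and 361 lower, which is 9.99% (5.48% higher and 4.51% lower). ITGB1 was at 578, 676, 577 and 799 CPM in GATA3-high and at 222, 212, 203 and 297 CPM in matched dn cells, without overlap (1.44, SE 0.057, edgeR adjusted p = 1.2e-25). CCR4 (1.97), the integrin chain gene ITGA2 (1.68), IL2RA (1.48), IKZF2 (1.47), MMP25 (1.38), the protease gene ADAM19 (1.27) and LMNA (1.25) rose with it. Of the genes named by size, which have at least 20 CPM, CENPF had the largest fold, at 50.3, 36.4, 46.2 and 14.4 CPM against 9.06, 5.44, 14.7 and 3.21 CPM (2.12, edgeR adjusted p = 2.9e-11), and GNG3 (1.22) and PEAR1 (1.21) also rose.

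In dn cells, 7 of 9 Treg genes, 5 of 6 Th2 genes and 12 of 15 galectin, S100, annexin and cytoskeletal genes rose (medians 1.07, 1.52 and 0.45). The Th2 genes included CRLF2, a chain of the TSLP receptor (2.10, edgeR adjusted p = 1.7e-08), and IL10 (2.28, edgeR adjusted p = 9.2e-06), neither of which could be tested in CD4 sp cells. ITGA4 (-0.34) was the exception that fell in the galectin list.

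Cytotoxic and Th1 genes fell in 10 of 19 and rose in 1 (median -0.78). CCL5 was at 19.1, 22.1, 4.62 and 14.4 CPM in GATA3-high and at 386, 113, 83.0 and 56.4 CPM in matched dn cells (-3.24, SE 0.45, edgeR adjusted p = 0.038), without overlap, and was not called in cells of at least 2000 UMIs (adjusted p = 0.076). GZMB (-1.90), IL12RB2 (-1.14), TBX21 (-0.86) and CXCR3 (-0.70) fell too. Other genes named by size that fell were the peptide gene NMB (-1.96), RGS10 (-1.65), the NK receptor gene KLRD1 (-1.44), PSEN2 (-1.23) and CD38 (-1.12). Since dn cells may be of the CD4 or CD8 lineage with the coreceptor transcript not caught, the 2 groups may differ in lineage. The part of this in the differences among dn cells was not tested. Within CD8A sp cells no gene of the cytotoxic and Th1 list was called.

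In CD8A sp cells there were 25, 86, 92 and 91 GATA3-high cells, and 28 genes were higher and 13 lower of 5738 tested, which is 0.715% (0.488% higher and 0.227% lower). Of the genes named by size, CD40LG, the CD40 ligand by which helper T cells activate B cells, had the largest fold. It was at 43.8, 39.4, 52.7 and 54.3 CPM in GATA3-high and 7.29, 13.2, 15.6 and 3.75 CPM in matched cells, without overlap (2.13, SE 0.35, edgeR adjusted p = 2.3e-04). A CD40LG UMI was found in 19.7% ± 2.40 of the GATA3-high and 4.92% ± 2.24 of the matched CD8A sp cells (SD, n = 4). Clusters 15, 3 and 6, mostly of CD4 sp or dn cells, held more of the GATA3-high CD8A sp cells. The means were 3.52%, 4.54% and 7.75%, against 0.543%, 0.856% and 0.546% of matched cells. Their part in the CD40LG difference was not tested, and cells with more than 1 TRB were not left out in this comparison.

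LMNA was at 36.5, 163, 150 and 73.1 CPM against 7.29, 71.4, 25.3 and 20.6 CPM in CD8A sp cells, higher in each dog (1.68, SE 0.21, edgeR adjusted p = 4.5e-06). GSDMA, a gasdermin gene (1.86), RBP4, a retinol carrier gene (1.35), CD52 (1.15), CYTH1 (1.01), IRF5 (1.05), SAMHD1 (1.37), PI3 (1.19), GOLIM4 (1.14), CPNE3 (1.13) and ITGA5 (0.96) also rose. From the galectin list 6 of 15 rose (median 0.26): LGALS1 (0.40), ANXA1 (0.85), VIM (0.37), ITGB1 (0.87), AHNAK (0.57) and LMNA.

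The 24 Th1 and cytotoxic genes gave 0 calls in CD8A sp cells (median -0.16). LGALS3 had 1.17 (edgeR adjusted p = 0.17). CCL5 had means of 2263 and 2966 CPM and GZMB 731 and 792 CPM in GATA3-high and matched cells. Genes that fell were ITGAM (-0.73), TUBA1B (-0.70), the histone gene H2AZ1 (-0.59), and by 0.20 to 0.24 the ribosomal genes RPL5, RPS12 and RPL18, MT-CO3 and PTMA. PI3, TUBA1B and H2AZ1 turned their sign when cells were not matched on depth. With as few as 25 cells, in dog 1, smaller differences could not be seen.

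**Figure D5:**
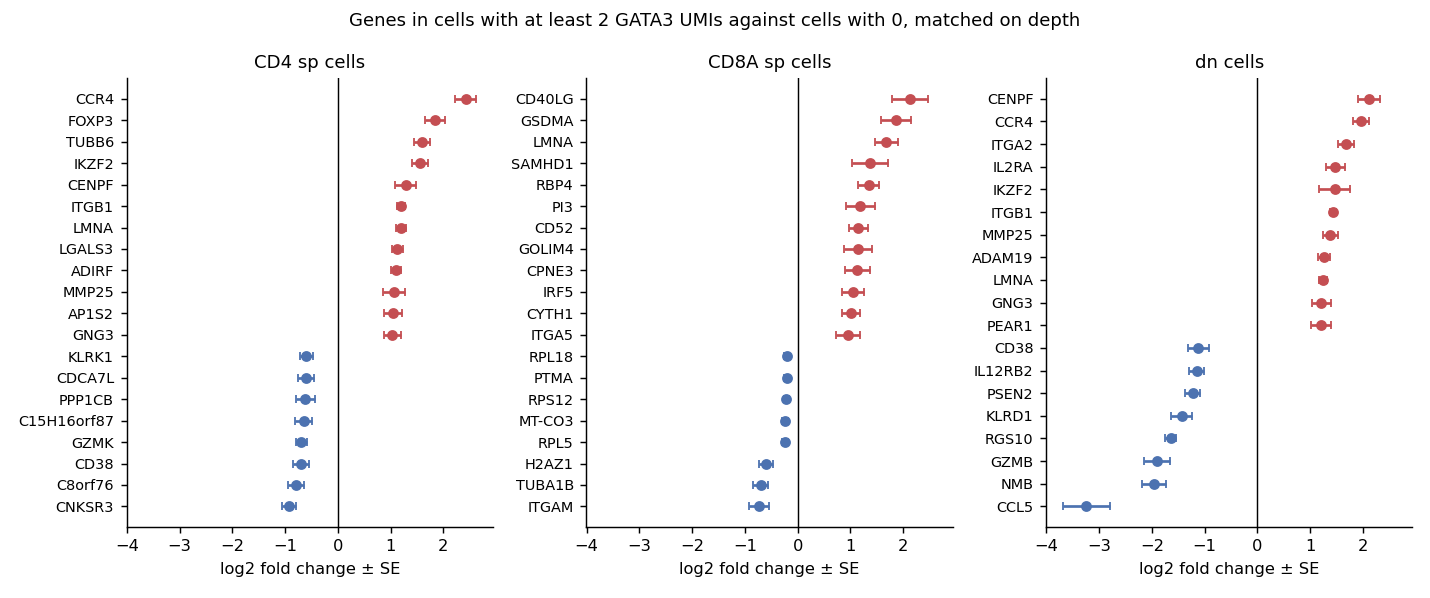
Log2 fold change (edgeR, bars are the SE) in cells with at least 2 GATA3 UMIs against matched cells with 0 (n = 4 dogs). Shown are the genes named by size in CD4 sp, CD8A sp and dn cells, 12 that rose and 8 that fell (11 that rose in dn). Red genes rose and blue genes fell. LMNA is the gene that rose in all 3 panels, with 1.20, 1.68 and 1.25.

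Whether the difference itself differed between CD4 sp and CD8A sp cells was tested in 1 fit over both. Each dog had 1 effect shared by both lineages, so the pairing of sums within a dog and lineage was not used. Of 7561 genes, 3 had a larger and 2 a smaller fold in CD8A sp cells, which is 0.0661%. CD40LG was level in CD4 sp cells, with 72.1, 86.9, 72.2 and 88.1 CPM in GATA3-high against 79.3, 75.2, 70.7 and 85.7 CPM in matched cells, and the difference of folds was 2.15 (SE 0.35, edgeR adjusted p = 3.7e-04), which was 1.70 without dog 4 (edgeR adjusted p = 0.078). CYTH1 (0.94) and BHLHE40 (0.82) had the larger fold in CD8A sp cells too. GNG3 (-1.58) and the unnamed gene ENSCAFG00000048539 (-1.41) had the larger fold in CD4 sp cells, and these 4 had an edgeR adjusted p of 0.027 each. For ITGB1 (-0.33), LMNA (0.44), LGALS3 (0.01) and RBP4 (0.49) no difference between the lineages was called. Their SEs in this fit, 0.35, 0.53, 0.39 and 0.68, were wide enough to hide a sizeable one. A fit with a dog effect in each lineage was not run.

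With all kept cells together, which hold the 3 classes above, 630 genes were higher and 525 lower of 9212 (12.5%, with 6.84% higher and 5.7% lower). CD8A itself fell, at 65.0, 121, 172 and 181 CPM in GATA3-high against 201, 293, 487 and 426 CPM in matched cells (-1.42, edgeR adjusted p = 8.9e-14), as the class levels above already imply. Cytotoxic and Th1 genes fell in 15 of 24 cases. Among them were GZMA (-1.73), CCL4 (-1.48) and GZMB (-1.47), and the NK receptor genes NCR3 (-1.80), KLRD1 (-1.57) and KLRB1 (-1.44) fell with ITGAM (-1.69). A CD8A UMI was found in 12.4% of GATA3-high and 26.3% of matched cells (means over dogs). The part of this in these falls was not tested. Within CD8A sp cells no gene of the cytotoxic and Th1 list was called. The genes named by size that rose, all of at least 20 CPM, were CCR4 (2.38), ITGA2 (2.15), FOXP3 (1.70), MMP25 (1.69), LMNA (1.46), LGALS3 (1.39), ITGB1 (1.38), ADAM19 (1.36), GSDMA (1.36), TUBB6 (1.27), KLK11 (1.19) and RBP4 (1.12). The largest fold of any gene called was 5.75.

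Of 24 partners and regulators of GATA3 tested in CD4 sp cells, 2 rose and 0 fell (median 0.05), namely JUNB, an AP-1 subunit (0.24), and FLI1, an ETS factor (0.40). FLI1 was at 154, 213, 228 and 226 CPM against 127, 151, 158 and 165 CPM, higher in each dog. ETS1 (0.00), the chromatin remodeller gene CHD4 (0.14) and NOTCH2 (-0.01) did not pass. In dn cells 6 of 24 rose, where 5.48% of all genes tested did: NOTCH1 (0.62), RBPJ (0.36), MAF (0.68), JUNB (0.33), EZH2 (0.89) and FLI1 (0.41), and SATB1 fell (-0.34). In CD8A sp cells BHLHE40 (0.68) was the one of 18 that rose, and FLI1 had 0.50 (edgeR adjusted p = 0.058). Other GATA factors were all but absent: GATA1 was found in 7 kept cells, GATA2 and GATA4 in 1 each and GATA5 in 0 of 31909.

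Th2 cytokines were rare. Over all 3075 GATA3-high and 3075 matched cells, IL13 gave 32 UMIs in 25 cells against 2 UMIs in 1 cell, which is 0.813% of cells (95% exact binomial interval 0.527 to 1.20) against 0.0325% (0.000823 to 0.181). IL4 gave 9 and 2 UMIs, and IL5 6 and 0, where a count of 0 allows up to 0.189 CPM. For IL4 and IL5 the exact intervals of the shares of cells overlap. These intervals cover counting error only, and cells of 1 dog are not replicates, so no test was made.

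The receptors of the Th2 list gave more counts. CRLF2 had 203 UMIs in GATA3-high and 30 in matched cells, IL17RB, the IL-25 receptor chain gene, 71 and 19, PTGDR2, which encodes the Th2 receptor CRTH2, 39 and 22, and CCR8 28 and 6. IL10 gave 125 and 19 UMIs. IFNG, the Th1 cytokine, gave 132 and 187 UMIs, in 2.37% and 4.10% of cells.

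Markers of other cell types were summed in the same cells. Of 19 such markers, 14 were in the gene list, and 6 of these (PAX5, CSF1R, MS4A2, CPA3, HDC and FCER1A, of B cells, myeloid cells and mast cells) had no UMI in any kept cell. The summed level was 2812 to 3589 CPM in GATA3-high and 1278 to 2648 CPM in matched cells of the 4 dogs. Nearly all of it was S100A8, which was found in 77.5% of kept cells; without S100A8 the sum was 9.03 to 19.7 CPM and 9.51 to 12 CPM. S100A8 was called higher in GATA3-high CD8A sp (0.50) and dn cells (0.49) and not in CD4 sp cells (0.43). MS4A1, a B cell gene, had 102 UMIs in GATA3-high and 16 in matched cells. The part of these markers in the results was not tested.

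T cell receptors came from separate libraries and were not used in choosing the cells. A clone was called shared where its TRB (V gene, J gene and junction) was seen in at least 2 cells of the dog. In CD8A sp cells the shared part of GATA3-high cells was 34.8%, 63.3%, 73.6% and 82.4% in dogs 1 to 4, against 30.0%, 58.9%, 67.5% and 77.6% in matched cells. It was higher in 4 of 4 dogs, by 5.00 percentage points on average (SD 0.734, exact sign-flip permutation test, two-sided p = 0.13, the smallest that 4 dogs allow). With clones of at least 3 cells the difference was 0.583 points (SD 7.89, exact permutation p = 1). A TRB was found in 92%, 69.8%, 78.3% and 74.7% of GATA3-high CD8A sp cells, against 80%, 84.9%, 83.7% and 83.5% of matched cells. The part of this in the sharing was not tested. In dog 1 the shared parts were 8 of 23 and 6 of 20 cells.

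Among CD4 sp cells the shared part was 11.8%, 34.0%, 26.5% and 45.0% in GATA3-high against 5.31%, 36.3%, 28.1% and 51.4% in matched cells, lower in 3 dogs and higher in dog 1 (mean difference -0.916 points, SD 5.37, exact permutation p = 0.75). In dn cells it was -1.06 points (SD 7.72, exact permutation p = 0.875). A difference of this size was not detectable with 4 dogs in either class.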

How the data were processed

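Per the labels and the study's methods, sorted TCRαβ+ T cells of 4 dogs went through a 5' single-cell protocol, and reads were processed with Cell Ranger 5.0.1 (submitters' processing notes) on CanFam 3.1 and its gene annotation. What the authors deposited are whole-number counts of UMIs, not normalized, for each barcode called as a cell, and lists of receptor rearrangements. Since dog 1 came with a list of 27980 names against 20257 matrix rows, the names of dog 2 were used throughout.

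Barcodes were kept at 500 to 20000 UMIs if their share from 13 mitochondrial genes was at most 10%, and genes if seen in at least 3 cells of a dog. GATA3-high cells (at least 2 UMIs) were matched 1 to 1 on their other UMIs with cells of 0 GATA3 UMIs from the same dog and class. UMIs were summed per dog and group and tested with edgeR 4.0.16 (quasi-likelihood, filterByExpr, TMM, robust) in R 4.3.3, with the dog as a block and Benjamini-Hochberg adjustment over all genes of the fit, a call being an adjusted p under 0.05. The pairing is that of the animal, since each dog gave both sums of a pair. Deviations of the sums of one dog correlated over genes at r = 0.0786 to 0.751, with the low end in CD8A sp cells. Correlations with other dogs, 0.00709 at most, are pushed down by taking out the mean over dogs, so they do not test the pairing. DESeq2 1.42.0 was an alternative, and the test was checked on simulated data. Sums over cells cannot tell fewer expressing cells from less RNA per cell.

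Clusters were made with Seurat 5.3.0 from the kept genes without GATA3, scaled within dogs. Named genes were the 12 that rose and 8 that fell most among genes with a symbol, at least 20 CPM, a call and 1 direction in all dogs, members of 15 gene lists, and the 5 genes most like GATA3 over clusters. Single members of the lists, S100A8, MS4A1, the cytokines and the other factors by class were picked for the text after their values were seen. GATA3, the gate genes and the lists were chosen with earlier results of these data known. No genome of the files' build was used here, so no position or sequence is given. Some genes of the lists and of the named genes are not reported here.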

Additional observations from a re-analysis of the deposited data

Results flagged for a closer look

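The fold of 5 genes differed between CD8A sp and CD4 sp cells in a test of the difference itself: CD40LG (2.15 on the log2 scale, higher in CD8A sp), CYTH1 (0.94), BHLHE40 (0.82), GNG3 (-1.58) and ENSCAFG00000048539 (-1.41). CD40LG kept an adjusted p of 0.0050 without the dog as a block and 0.0058 in DESeq2, and was not called when dog 4 was left out (1.70, edgeR adjusted p = 0.078). The other genes were not called in either of these (adjusted p of 0.16 to 1).

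In 3 of 35 groups of 4 dogs, 1 dog lay farther from the others than 1 in 20 groups would by chance, where 1.75 such groups are expected. All were dog 1. The share of its CD4 sp cells with a GATA3 UMI was 26.8%, against 33.5% to 33.9% in the other dogs. The share of its dn cells was 29.8%, against 36.2% to 37.3%. GATA3 in its cells of cluster 5 stood at 106 CPM, against 113 CPM in each of the others. That cluster held only 117 cells of dog 1, against 807, 990 and 249 of dogs 2 to 4, and counting error was not weighed in this rule. Dog 1 also had the lowest median depth, 3599 UMIs, whose part in these shares was not tested. Dog 1 was the only female and the youngest dog, and neither trait can be told apart from the animal.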

How the results depend on the processing

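Of 289 alternatives of the main results, 233 kept direction and call, 13 lost the call, 6 changed sign and 37 moved a value or count. Of 1078 alternatives of the named genes, 861 kept both, 212 lost the call and 5 changed sign. The cause of these changes was not tested. In all cells, 1155 genes were called, against 416 with DESeq2, 2309 without matching on depth, 393 without the 3 clusters of the highest GATA3 level and 675 to 940 with 1 dog left out (675 without dog 2). In CD4 sp cells, 406 were called, against 137 with DESeq2, 263 with at least 3 GATA3 UMIs, 162 with exactly 2, 147 with exactly 1, 1215 without matching, 224 without cells with a FOXP3 UMI, 122 without the 3 clusters and 214 to 354 with 1 dog left out. In CD8A sp cells, 41 were called, against 10 with DESeq2, 70 with at least 1 GATA3 UMI, 23 with at least 3, 93 with no filter on low counts, 334 without matching and 26 to 60 with 1 dog left out. In dn cells, 799 were called, against 251 with DESeq2, 242 without the 3 clusters and 417 to 758 with 1 dog left out. For the difference between CD4 sp and CD8A sp cells, 5 were called, against 3 with DESeq2, 12 with no filter and 1 to 3 with 1 dog left out. Without the dog as a block, which ignores that the samples are paired by animal, these counts were 77, 7, 4, 80 and 1, and the class calls held. The gates then had log2 fold changes of -0.43 for CCR7 (adjusted p = 0.13), -0.24 for CCR9 (0.32) and -0.20 for CXCR3 (0.53) in CD4 sp cells and -0.35 for GZMB in CD8A sp cells (0.12), all in edgeR and all no longer called. DESeq2 gave -0.25 for CCR9, -0.19 for CXCR3 and -0.35 for GZMB, none called. With 1 dog left out, log2 fold changes ran from -0.29 to -0.22 for CCR9, -0.26 to -0.16 for CXCR3, -0.42 to -0.31 for GZMB, -0.29 to 0.056 for CCR7 in CD8A sp cells, -0.031 to 0.12 for GPR25 and -0.26 to 0.014 for TBX21, and differences in clone sharing from -3.38 to 0.900 points in CD4 sp and -4.03 to 1.89 points in dn cells, where the one without dog 3 was 0.0108. Thinned to 2000 UMIs, the share of cells with a GATA3 UMI was 18.0% of all, 17.8% of CD4 sp, 11.1% of CD8A sp, 15.5% of dp and 23.1% of dn cells. Among named genes, CD38 (0.076) and KLRK1 (0.013) changed sign in CD4 sp cells with exactly 1 GATA3 UMI, and PI3 (-0.42), TUBA1B (0.25) and H2AZ1 (0.12) in CD8A sp cells without matching. DESeq2 gave no adjusted p for most genes named in CD8A sp cells and for the TBX21 and TOX gates. The alternatives with cells of at least 2000 UMIs, with exactly 1 or 2 GATA3 UMIs, without the 3 clusters, and all in dn cells were chosen after seeing the data. The depth of about 3800 UMIs per cell limits all cell-level calls of GATA3, and no cell type without GATA3 was measured.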
